A study of Sus scrofa with 2 samples.

Results

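The peptide genes described here are PENK, NMB and NMU, taken as the rows of the deposited gene tables with exactly these symbols. Each symbol was on 1 row, so the set is 3 of 26881 genes, or 3 of the 10753 rows that carry a symbol. PENK is ENSSSCG00025022700, NMB is ENSSSCG00025064766 and NMU is ENSSSCG00025004728. The study used droplet single-cell RNA sequencing of endometrium, the inner lining of the uterus, to set the pre-receptive uterus against the receptive uterus in Yorkshire sows. Its design has 2 inseminated sows of 3 years, 1 taken at day 7 and 1 at day 13 of gestation, with the day of insemination as day 0 and tissue drawn from both uterine horns. No label ties a library to a day, so they are named library 1 and library 2 here and neither is given a stage. Both came from digested whole endometrium. Each library is 1 animal, so no difference has a replicate check, nothing was tested, and every interval is a 95% interval for counting error only.

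PENK encodes proenkephalin, a precursor that proprotein convertases and carboxypeptidases cut into the enkephalins, short opioid peptides that act mainly on the delta and mu opioid receptors. NMB encodes neuromedin B, a bombesin-like peptide that acts on the receptor NMBR and more weakly on GRPR. NMU encodes neuromedin U, named for its contraction of uterine muscle, which acts on NMUR1 and NMUR2 and through NMUR1 on innate immune cells. All 3 products are secreted, so the cell that makes the transcript and the cell that carries the receptor need not be the same.

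Library 1 held 10045 barcodes and 45388759 UMIs, which count distinct transcript molecules, and library 2 held 15093 barcodes and 87514969 UMIs, with medians of 3431 and 4335 UMIs per barcode. Of these, 8930 and 12673 passed the filters and the doublet call, and 48 barcode sequences were present in both libraries (0.478% and 0.318% of them). Cells fell into 30 clusters, of which 27 could be named from marker genes, and names are given as "-like" because they were rebuilt here. The clusters were formed without PENK, NMB and NMU. Different clusters supplied most of the epithelial-like, stromal-like, muscle-like, endothelial-like and T or NK-like cells of each library. A value compared between libraries therefore also compares different clusters. Levels are given as CPM, the UMIs of the gene per 1000000 UMIs of the class.

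PENK lay mostly in stromal-like cells, and NMB and NMU both lay mostly in epithelial-like cells. Stromal-like cells held 80.7% of the PENK UMIs of library 1, and epithelial-like cells held 91.5% of its NMB UMIs and all 8 of its NMU UMIs. In library 2 the corresponding shares were 72.5%, 82.3% and 94.9%. PENK was lower in library 2 in its main class, whereas NMB and NMU were higher there in theirs. No cell of either library had UMIs of both PENK and NMU. All 3 cells with an NMU UMI in library 1 also had NMB, as did 63 of 103 such cells in library 2.

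**Figure D1:**
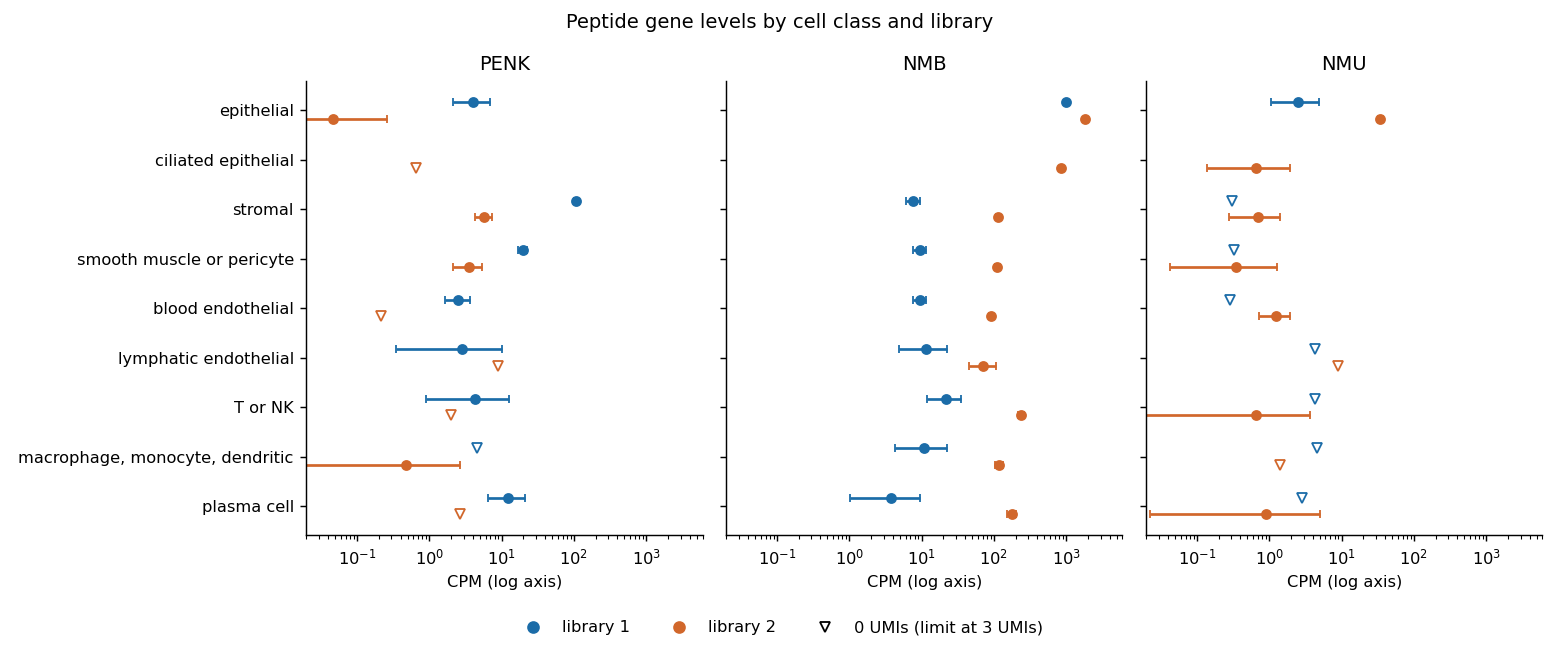
Level in CPM on a log axis for PENK, NMB and NMU in each class of at least 50 cells, with library 1 in blue and library 2 in orange; bars are 95% Poisson intervals and open triangles mark 0 UMIs, drawn at the level that 3 UMIs would give. PENK is highest in stromal-like cells of library 1 at 107.5 CPM, NMB in epithelial-like cells at 999.5 and 1842 CPM, and NMU in epithelial-like cells of library 2 at 34.4 CPM.

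PENK was a stromal transcript of library 1. The 2238 stromal-like cells of library 1 held 1049 PENK UMIs, or 107.5 CPM (101.1 to 114.2), and the 2176 of library 2 held 58 UMIs, or 5.72 CPM (4.34 to 7.40). The level was 18.8-fold lower in library 2, a log2 ratio of library 2 over library 1 of -4.23 (-4.64 to -3.85). Only 0.148% of the 8777 genes measured in this class had a lower ratio, and 13.0% were at least 2-fold lower. A PENK UMI was seen in 444 cells of library 1 (19.8%) and in 30 cells of library 2 (1.38%), at median depths of 4372 and 4482 UMIs. With every cell thinned to 1000 UMIs the shares were 7.64% and 0.280%, and 158 and 33 shallower cells were left out. T or NK-like cells, set beside them as a gauge of free RNA, had PENK in 0.629% of 477 cells of library 1 at a median of 1320 UMIs, and in 0 of 832 cells of library 2, which allows a share of cells with a UMI of up to 0.361% at a limit of 3 cells.

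Within the stroma of library 1 PENK followed the cluster. The cluster led by CRABP1, a cytoplasmic carrier of retinoic acid, and by COL23A1 and SPOCK3 had 164.0 CPM (153.2 to 175.4) and a PENK UMI in 348 of its 1215 cells (28.6%). The cluster led by ANPEP, C3 and MFAP5 had 42.4 CPM (36.6 to 48.8) and a UMI in 96 of 1023 cells (9.38%). The CRABP1-led cluster was thus 3.87-fold higher than its neighbour (log2 1.95, 1.73 to 2.19). In library 2 the cluster led by RORB, C3 and DCLK1 had 9.67 CPM (7.11 to 12.9), and the one led by NRG1, CNTNAP2 and RXFP1 had 2.09 CPM (1.04 to 3.74). Every pair of a library 1 cluster with a library 2 cluster had the lower level in library 2, from 4.38-fold (ANPEP-led against RORB-led) to 78.5-fold (CRABP1-led against NRG1-led). In the RORB-led cluster 1 cell with 15 PENK UMIs held 31.9% of the cluster's 47 UMIs.

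PENK was unevenly spread over the stromal-like cells. In library 1, 83 of the 2238 cells held 50% of the UMIs, and the highest cell had 18. The 53 cells with at least 5 UMIs (2.37%) held 39.2% of the UMIs at 1231 CPM, and the other cells stood at 67.7 CPM. Cells with at least 10 UMIs numbered 10 and held 13.7% of the UMIs. In library 2 only 2 stromal-like cells had 5 or more.

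Contractile and mural cells came next. The smooth muscle or pericyte-like class had 19.5 CPM (16.8 to 22.6) in library 1 and 3.50 CPM (2.14 to 5.41) in library 2, a log2 ratio of -2.48 (-3.22 to -1.81). Of 8491 genes measured there, 10.8% were at least 2-fold lower. Most of the signal in library 1 came from a cluster led by SULT1E1, a sulfotransferase of oestrogens, with the contractile genes ACTG2 and CNN1. It had 58.9 CPM (49.1 to 70.0) and a UMI in 42 of 604 cells (6.95%), which is 1.39-fold above the ANPEP-led stroma. This cluster shared stromal markers, with a mean stromal marker log2 fold of 0.51 beside 0.95 for muscle, so its name is uncertain. Its PENK was uneven, with 10 cells of at least 5 UMIs holding 59.4% of 128 UMIs. The vascular muscle cluster led by MGP, ITIH4 and RRAD had 13.9 CPM (9.37 to 19.8) in library 1, and the ITIH4- and MGP-led cluster of library 2 had 9.61 CPM (5.38 to 15.8), with overlapping intervals. The pericyte-like clusters led by PCP4 and by CCL19 had 4.65 and 1.21 CPM.

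**Figure D2:**
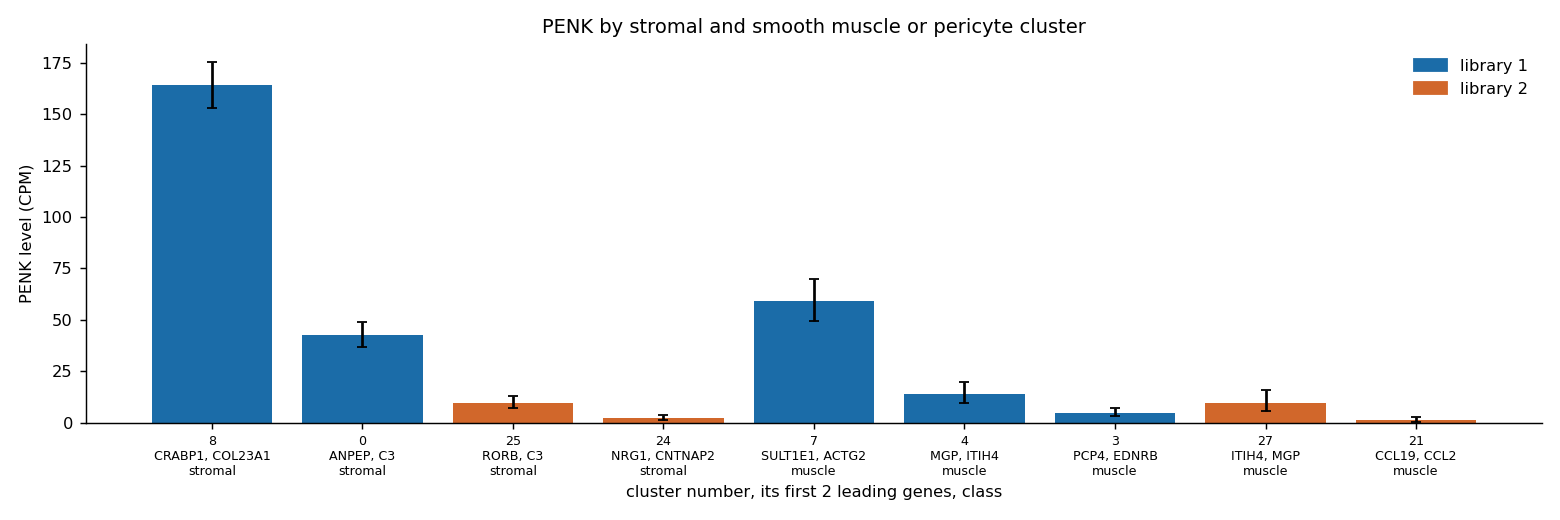
PENK level in CPM in each stromal-like and smooth muscle or pericyte-like cluster of at least 45 cells, with 95% Poisson intervals; the cluster number, its first 2 leading genes and its class stand under each bar, library 1 is blue and library 2 orange. The CRABP1-led cluster of library 1 reaches 164.0 CPM, and no cluster of library 2 exceeds 9.67 CPM.

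Other cells had little PENK. In library 1 epithelial-like, T or NK-like, lymphatic and blood endothelial-like cells had 4.04, 4.30, 2.84 and 2.50 CPM, whose counting intervals overlapped, and macrophage-like cells had 0 UMIs. The 87 plasma-like cells had 12.2 CPM, but 1 cell held 8 of their 13 UMIs. Blood endothelial-like cells had 26 UMIs in library 1 and 0 in library 2. Setting the 0 to 3 UMIs gave an 11.6-fold lower level (log2 -3.53, with an upper interval limit of -3.13). In this class 11.3% of genes were at least 2-fold lower. Epithelial-like cells had 13 and 1 UMIs, a log2 ratio of -4.87 with the count of 1 set to 3 (-11.86 to -3.72), beside 24.5% of genes at least 2-fold lower. The levels of these last 2 classes in library 1 did not exceed the 4.30 CPM of T or NK-like cells. That level rests on only 3 UMIs (0.887 to 12.6 CPM). The ratios of the 2 classes are therefore not read as differences in PENK expression. With cells thinned to 1000 UMIs the log2 ratios were -5.09 in stromal-like and -1.32 in muscle-like cells, and -0.77 in blood endothelial-like cells.

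NMB was a gene of the epithelium. Epithelial-like cells had 3217 NMB UMIs in 230 cells of library 1, or 999.5 CPM (965.3 to 1035), and 39966 UMIs in 3047 cells of library 2, or 1842 CPM (1824 to 1861). The level was 1.84-fold higher in library 2 (log2 0.88, 0.83 to 0.93), under 2-fold, in a class where 21.6% of genes were at least 2-fold higher. TMM scaling, which sets the ratio of most genes near 0, would add 0.32 to every epithelial log2 ratio. The class value hid a different spread over cells. An NMB UMI was found in 60 cells of library 1 (26.1%, 20.5 to 32.3%) and in 2215 cells of library 2 (72.7%, 71.1 to 74.3%), and the thinned shares were 8.46% and 45.6%.

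In library 1 a small set of cells carried nearly all of the transcript. The 17 of 230 epithelial-like cells with at least 10 NMB UMIs held 3148 of the 3217 UMIs (97.9%) at 8531 CPM, and the other 213 cells held 69 UMIs at 24.2 CPM. Only 5 cells held 50% of the UMIs, and the highest had 663. In library 2, by contrast, 848 cells (27.8%) had at least 10 UMIs and held 89.9% of the UMIs, 195 cells held 50%, and the highest had 389. The 17 cells were deeper, with a median of 13192 UMIs against 6581, and called doublets of library 1 held only 1 further barcode with at least 10. The genes that most set the 17 cells apart, chosen after their values were seen, were CYP26A1, UPTI, GPR183, UPK3A and HPGD. CYP26A1, which degrades retinoic acid, had 1656 CPM in the 17 cells and 2.46 CPM in the others. UPTI, a uterine inhibitor of plasmin and trypsin, had 794 and 1.75 CPM. HPGD, which inactivates prostaglandins, had 585 and 5.61 CPM. KRT8, an epithelial keratin, was at 1314 and 915 CPM, while FOXA2, a factor of uterine glands, was at 32.5 and 119 CPM. FOXJ1, a factor of ciliated cells, was at 10.8 and 61.1 CPM.

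The epithelial-like cells were also split by UPTI. Because UPTI was taken from the genes that set the 17 NMB-rich cells apart, the high NMB of the UPTI-positive cells of library 1 follows from that choice, and the split is a description. With a limit of 5 UPTI UMIs, the 12 UPTI-positive cells of library 1 all had at least 10 NMB UMIs and stood at 13969 CPM (13452 to 14500). The 46 UPTI-positive cells of library 2 stood at 766 CPM (679 to 860), 18.2-fold lower (log2 -4.19, -4.37 to -4.01). The remaining cells had 153 CPM in library 1 (218 cells) and 1861 CPM in library 2 (3001 cells), 12.1-fold higher (log2 3.60, 3.47 to 3.74). Of those 218 cells, 5 had at least 10 NMB UMIs and held 394 of the 463 UMIs, and the other 213 cells are those at 24.2 CPM. Limits of 2 and 10 UPTI UMIs gave log2 ratios of -3.74 and -4.27 in the UPTI-positive cells and 4.05 and 2.68 in the others. The UPTI-positive cells of library 1 number only 9 to 13, from 1 animal. At the limit of 5, UPTI-positive cells had median depths of 13183 UMIs in library 1 and 6326.5 in library 2. Whether those of the 2 libraries are 1 cell type was not tested.

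**Figure D3:**
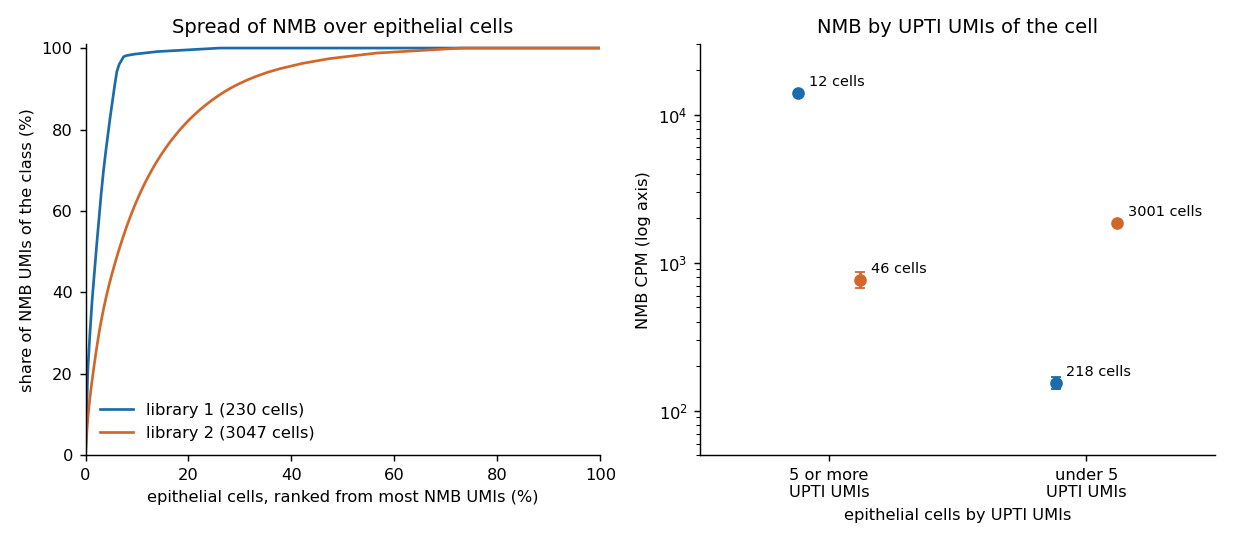
Left, the cumulative share of NMB UMIs over epithelial-like cells ranked from most to least NMB, for 230 cells of library 1 (blue) and 3047 of library 2 (orange). Right, NMB level in CPM on a log axis in epithelial-like cells with at least 5 or fewer than 5 UPTI UMIs, with 95% Poisson intervals and the number of cells; the order of the libraries reverses between the 2 sets.

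In library 2 NMB was highest in secretory gland clusters. The cluster led by SLPI, UABP-2 and SULT2A1, with genes of a secreted protease inhibitor, a uteroferrin-associated protein and a steroid sulfotransferase, had 3008 CPM (2976 to 3041) and a UMI in 1224 of 1403 cells (87.2%), with a median of 7 UMIs per cell. The CDO1-led gland cluster had 945 CPM (918 to 973) in 671 cells and a median of 2. Lower were the UPTI-led cluster at 804 CPM (712 to 905) and the cluster led by SAL1, a salivary lipocalin gene, at 356 CPM (341 to 373) in 919 cells. Ciliated-like cells of library 2 had 860 CPM (833 to 887), with an interval that overlapped that of the UPTI-led cluster, but NMB was unevenly spread in them. Of the 575 cells, 20 held 50% of the UMIs, the median was 1 and the highest was 344. The 89 cells with at least 10 NMB UMIs held 87.8% of the UMIs, at a median depth of 14698 UMIs. The other ciliated-like cells had a median depth of 5044 UMIs and stood at 156 CPM. The class also had the gland gene ACP5 at 10373 CPM, with 8.29 NMB UMIs for every 100 ACP5 UMIs. The part of free RNA in its NMB was not tested. In library 1 the ciliated-like cells, 36 when clustered with the members left in, lay inside the epithelial-like cluster and had 2 NMB UMIs. An unnamed cluster of 1276 barcodes with a median of 1091 UMIs and an epithelial leaning had 452 CPM, which in these shallow barcodes is 0.558 NMB UMIs per cell.

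Outside the epithelium NMB was low and alike in most classes. In library 1 these classes had between 3.74 CPM (plasma-like) and 21.5 CPM (T or NK-like), and a UMI in 2.80 to 4.60% of their cells, apart from 7 B-like cells with 0 UMIs. In library 2 they had between 71.6 CPM (lymphatic-like) and 238 CPM (T or NK-like), and a UMI in 29.3 to 48.4% of cells. Per cell, stromal, muscle, blood endothelial, T or NK, macrophage and B-like cells of library 2 had 0.528, 0.479, 0.491, 0.430, 0.472 and 0.484 NMB UMIs, although their median depths ran from 1665 to 4482 UMIs. Lymphatic-like cells had 0.320 and plasma-like cells 2.09, where 1 cell held 64 of 199 UMIs. In library 1 the same classes lay between 0.031 and 0.046, B-like cells aside. For every 100 UMIs of ACP5, the gland gene of uteroferrin, library 2 had 10.1 NMB UMIs in epithelial-like cells and 10.8 to 13.1 in the non-epithelial classes other than lymphatic-like cells, which had 6.19. For every 100 UMIs of UABP-2 the values were 26.4 and 24.7 to 33.1. For every 100 UMIs of SLPI the values were less even in both libraries. Library 1 had 173 NMB UMIs in epithelial-like, 46.0 in stromal-like and 51.5 in muscle-like cells, beside 42.9, 44.1 and 45.6 in library 2. T or NK, macrophage and B-like cells of library 2 had 45.3, 45.4 and 46.5. Blood endothelial-like cells, where SLPI itself was at 505 and 487 CPM, had 1.87 and 18.6. Lymphatic-like cells had 15.1 and 28.6, and plasma-like cells of library 2 had 68.6. The part of free RNA in the NMB levels outside the epithelium was not tested, and these levels are not read as expression.

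Between the libraries NMB was at least 2-fold higher in library 2 in all 5 non-epithelial classes compared, with log2 ratios of 3.88 in stromal, 3.55 in muscle, 3.26 in blood endothelial, 3.47 in T or NK and 3.43 in macrophage-like cells. The shares of all genes at least 2-fold higher there were 27.9%, 21.8%, 22.6%, 22.5% and 18.5%. With called doublets kept, the log2 ratios of the first 4 classes were 5.73, 5.27, 5.35 and 5.19.

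**Figure D4:**
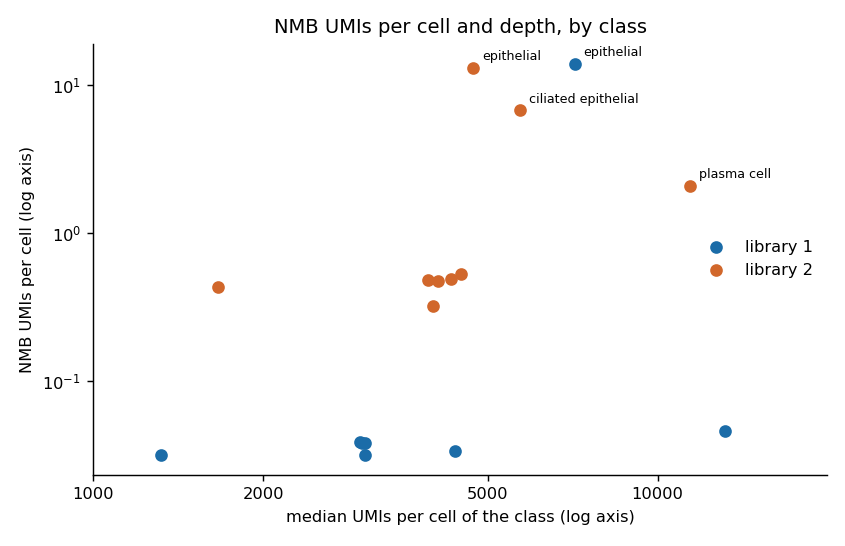
Mean NMB UMIs per cell against the median UMIs per cell, both on log axes, for each class of at least 50 cells in library 1 (blue) and library 2 (orange). Outside the labelled classes the points of library 2 lie between 0.320 and 0.528 UMIs per cell and those of library 1 between 0.031 and 0.046, over a wide range of depth.

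NMU was almost confined to 1 small group of epithelial cells. Library 1 had 8 NMU UMIs in 3 cells, all epithelial-like, and the highest cell had 5. Library 2 had 786 UMIs in 103 cells, of which 746 lay in epithelial-like cells and 706 (89.8%) in a single cluster of 45 cells, 0.355% of the library. That cluster had 2058 CPM, with a UMI in 41 of its 45 cells, a median of 9 and a range from 0 to 87 UMIs. The other 12628 cells of library 2 had 80 UMIs, or 1.26 CPM, with a UMI in 62 cells (0.491%) and a highest value of 12. Called doublets held another 95 UMIs, with 5 barcodes at 5 or more. The cluster was formed without NMU, and the same 45 cells grouped together with NMU left in. It is under the 50-cell limit set for values by cluster and was taken after its values were seen.

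UPTI led this cluster, at 25951 CPM against 8.09 to 18.0 CPM in the 3 other epithelial-like clusters of library 2. S100A2 had 1580 CPM, AGR2, a disulfide isomerase of secretory epithelia, 1533 CPM, and the tight junction gene CLDN8 484 CPM. The epithelial keratin gene KRT8 stood at 906 CPM, and the gland gene ACP5 at 2370 CPM against 3624 to 29067 CPM in the other clusters. FOXA2 had 3 UMIs. Not all gland genes were low there. RBP4 was at 21839 CPM against 1161 to 15626 CPM in the other clusters. UABP-2 had 909 CPM against 463 to 12148 CPM, and SLPI had 478 CPM against 193 to 8079 CPM. By the rule fixed for cells with and without a member, the 66 epithelial-like cells with an NMU UMI differed most from the 2981 without in SFN, UPTI, S100A2, the epithelial calcium channel gene TRPV5 and STC1. UPTI, for instance, had 17750 CPM in the cells with NMU and 11.8 CPM in those without, and TRPV5 had 558 and 1.60 CPM. The median depths were 5985 and 4699 UMIs.

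Most NMU UMIs of both libraries lay in cells with UPTI, a gene taken because it led the NMU-rich cluster, so this split too is a description. In library 1 all 8 NMU UMIs were in the 12 cells with at least 5 UPTI UMIs, where they made 40.6 CPM (17.5 to 80.0), and the 218 other epithelial-like cells had 0. They came from 3 cells, 1 of them with 5 UMIs, and the 12 cells were deeper than the others, with medians of 13183 and 6759 UMIs. In library 2 the 46 such cells had 719 UMIs, or 1945 CPM (1806 to 2093), with a UMI in 43 of them, and the 3001 others had 27 UMIs, or 1.27 CPM. Among UPTI-positive cells NMU was 47.9-fold higher in library 2 (log2 5.58, 4.60 to 6.80), while NMB in the same cells was 18.2-fold lower. The UPTI-positive cells of the libraries were unlike in depth, with medians of 13183 UMIs in library 1 and 6326.5 in library 2. They were also unlike in UPTI. All 230 epithelial-like cells of library 1 had 298 UPTI UMIs, against 8904 in the 45 cells of the UPTI-led cluster of library 2. Whether they are 1 cell type was not tested. In the epithelial-like class as a whole NMU had 2.49 and 34.4 CPM, 13.8-fold higher in library 2 (log2 3.79, 2.80 to 5.01), a ratio exceeded by 1.64% of 8725 genes. With cells of at least 5 UPTI UMIs left out of both libraries, 0 and 27 UMIs remained, and setting the 0 to 3 UMIs gave log2 0.35. Limits of 2 and 10 UPTI UMIs gave -0.08 and 0.57, so no direction is read in the remaining cells. With cells thinned to 1000 UMIs library 1 had 0 NMU UMIs and the log2 ratio was 1.20 at the floor of 3 UMIs.

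**Figure D5:**
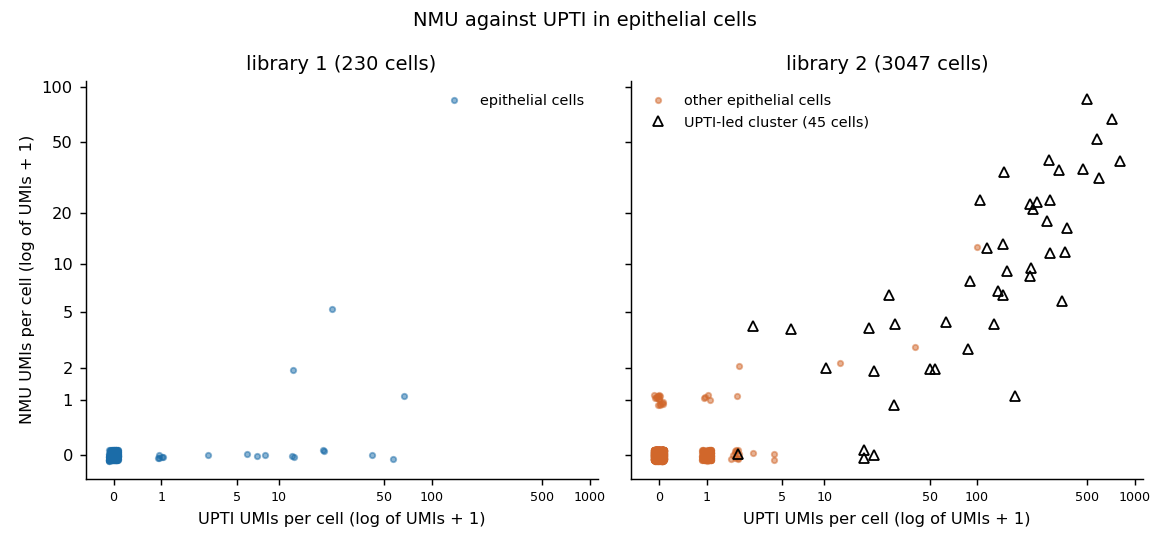
NMU UMIs against UPTI UMIs in each epithelial-like cell, on log axes of UMIs plus 1 with small random shifts so that equal values can be seen; black triangles are the 45 cells of the UPTI-led cluster of library 2. All 30 cells with 5 or more NMU UMIs have at least 24 UPTI UMIs, and the 3 NMU cells of library 1 lie among its UPTI-positive cells.

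NMU elsewhere was at trace level. Blood endothelial-like cells had 0 UMIs in library 1 and 17 in library 2 (1.23 CPM), where 14 of 2557 cells had a UMI. Setting the 0 to 3 UMIs gave a 4.25-fold higher level (log2 2.09, with a lower interval limit of 1.63). Stromal-like and muscle-like cells of library 2 had 7 and 2 UMIs, T or NK-like cells 1, and macrophage-like cells 0 in 521 cells, which allows a share of cells with a UMI of up to 0.576% at a limit of 3 cells.

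Receptor transcripts were sparse. In library 2 most UMIs of NMUR1, OPRM1 and OPRK1 lay in T or NK-like cells, and those of OPRD1 and GRPR lay elsewhere. NMUR1 had 8 UMIs (11.5 CPM) in T or NK-like cells of library 1 and 48 UMIs (31.9 CPM) in those of library 2, a log2 ratio of 1.48 (0.38 to 2.77). It was seen in 44 of 832 cells of library 2 (5.29%), and these cells held 82.8% of the library's NMUR1 UMIs. In library 1 T or NK-like cells held 32.0% of the 25 NMUR1 UMIs, and stromal-like cells held 16 of them, against 1 in library 2. OPRM1, the mu opioid receptor gene, had 0 UMIs in all of library 1 and 43 in library 2, of which 31 lay in T or NK-like cells, in 27 cells (3.25%, 2.15 to 4.69%). With the 0 of library 1 set to 3 UMIs, OPRM1 was 4.79-fold higher in library 2 for this class. It stood there at 20.6 CPM, against 0.193 CPM in the other cells of library 2. OPRK1, the kappa receptor gene, had 0 of 3 UMIs in T or NK-like cells of library 1 and 11 of 20 in those of library 2. With the 0 set to 3 UMIs this was 1.70-fold higher. OPRD1, the delta receptor gene, had 2 and 17 UMIs in whole libraries, 8 of the 17 in ciliated-like cells and 0 in T or NK-like cells. NMBR, the main receptor gene of neuromedin B, had 0 UMIs in both libraries, which at this depth only limits its level. GRPR had 3 and 62 UMIs in whole libraries, 37 of them in epithelial-like cells of library 2 (1.71 CPM). GRP, the sister ligand gene of NMB, had 0 and 1 UMIs. NMUR2 and the nociceptin receptor gene were not analysed here, because no row carried their symbols.

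The wider peptide lists, 94 entries of which 63 had a symbol, did not move as a block. In stromal-like cells 35 list genes were measured, 8 at least 2-fold higher and 8 at least 2-fold lower in library 2, with a median log2 ratio of -0.01 against 0.12 over all genes. The counts beside the shares of all genes are 22.9% against 27.9% higher and 22.9% against 13.0% lower. In epithelial-like cells 8 of 36 were higher and 14 lower (38.9% against 24.5% of all genes), with a median of -0.47 against -0.16. Muscle-like cells had 8 higher and 6 lower of 32, beside 21.8% and 10.8% of all genes. Blood endothelial-like cells had 7 and 5 of 31, beside 22.6% and 11.3%. Macrophage-like cells had 5 and 5 of 23, beside 18.5% and 14.7%. T or NK-like cells had 10 and 2 of 25, beside 22.5% and 9.52%. The lists hold PENK, NMB and NMU themselves.

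Among other peptide precursors, SST and CCK were also lower in library 2. SST, the somatostatin gene, was 33.9-fold lower in the stromal-like cells of library 2 (12 UMIs, 1.18 CPM) than in those of library 1 (392 UMIs, 40.2 CPM), a log2 ratio of -5.08 (-6.05 to -4.26). In library 1 it lay in the CRABP1-led cluster, as PENK did, with 387 UMIs in only 36 of 1215 cells and a highest value of 51. In that cluster 3.45% of the PENK-positive cells and 2.77% of the other cells had SST. Only 12 cells had both, too few to show whether the transcripts were paired within cells. CCK, the cholecystokinin gene, had 76.7 CPM in epithelial-like cells of library 1, in 41 of 230 cells, and 0.738 CPM in library 2 (log2 -6.70, -7.53 to -5.97). PTHLH, the parathyroid hormone-like hormone gene, was higher in library 2 in stromal-like cells, at 13.8 and 85.3 CPM (log2 2.62), with 136 CPM in the RORB-led cluster. ADM, the adrenomedullin gene, was at 15.2 and 103 CPM in epithelial-like cells (log2 2.76) and at 207 and 189 CPM in stromal-like cells. POMC, the other opioid precursor gene measured, was at 24.8 and 22.2 CPM in stromal-like and 32.0 and 38.4 CPM in epithelial-like cells, alike in the libraries. In T or NK-like cells it was higher in library 2, at 4.30 CPM (3 UMIs) and 19.9 CPM (30 UMIs).

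Genes of peptide-processing enzymes differed one by one, and which of them act on the precursors in this tissue was not tested. PCSK2, a proprotein convertase gene, had 1 and 13 UMIs in whole libraries. No row carried the symbols PCSK1 or PAM. PCSK5, another convertase gene, had 37.0 CPM in stromal-like cells of library 1 and 760 CPM in library 2 (log2 4.36, 4.21 to 4.52). It was also higher in library 2 in muscle-like cells (15.3 and 117 CPM) and blood endothelial-like cells (18.7 and 103 CPM). PCSK6, a related convertase gene, had 6.97 and 60.3 CPM in stromal-like and 6.79 and 148 CPM in muscle-like cells. FURIN was at 41.0 and 194 CPM in epithelial-like cells (log2 2.24) but at 28.5 and 34.6 CPM in stromal-like cells. CPE, the carboxypeptidase that trims neuropeptide intermediates, was at 161.4 and 160.7 CPM in stromal-like cells, while CPZ, another carboxypeptidase gene, was at 99.0 and 42.0 CPM. CTSL, a cathepsin that can cut proenkephalin, was at 425 and 426 CPM in stromal-like cells and at 231 and 591 CPM in epithelial-like cells. Whether reads from introns were counted is not given in the sources used here, and its part in these levels was not tested.

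The peptidases that degrade enkephalins were also unequal. ANPEP, aminopeptidase N, was 11.0-fold lower in the stromal-like cells of library 2 (29.5 CPM) than in those of library 1 (324 CPM), a log2 ratio of -3.46 (-3.63 to -3.29). It marked the ANPEP-led cluster at 644 CPM and was at 46.7 CPM in the CRABP1-led cluster where PENK was highest. MME, neprilysin, was at 10.5 and 19.1 CPM in stromal-like cells and at 336 and 125 CPM in epithelial-like cells (log2 -1.42). DPP3 was at 7.69 and 12.5 CPM in stromal-like cells.

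The genes whose class pattern was most like each member were found over 18 class-by-library points, which share libraries and depth, among 7666 genes. For PENK they were COPG1 (Pearson r = 0.90), the collagen genes COL3A1 and COL1A1, the Hedgehog effector gene GLI1 (0.88) and the homeobox gene SHOX2. For NMB they were the metallothionein gene MT1D (0.99), the tight junction gene CLDN7, the keratin gene KRT18, RFX6 and DLX5. For NMU they were UPTI (0.81), CAMSAP3, UCHL5, slc30A3 and RCCD1. With a pseudocount of 10 CPM in place of 1, 2, 4 and 3 of the 5 genes stayed for PENK, NMB and NMU, and CRABP1 came first for PENK (0.92). Within the stroma of library 1, cells with and without a PENK UMI were compared, at median depths of 5198 and 4092 UMIs. The 2419 genes compared had a symbol and at least 50 CPM and 20 UMIs in the cells with PENK. Those cells had at most 2.00-fold more of any of these genes, led by the kinesin gene KIF5C, the urokinase gene PLAU, TLE4, HOPX and SPOCK3. The comparison pooled the stromal clusters. Of the 444 cells with PENK, 348 lay in the CRABP1-led cluster, which SPOCK3 also led. The part of this cluster mix was not tested. Within the epithelium of library 2, cells with an NMB UMI had 5.09-fold more SLPI, and SULT2A1, UPTI, UABP-2 and MGST2 followed, at median depths of 6035 and 2721 UMIs. SLPI, UABP-2 and SULT2A1 also led the gland cluster that held 1224 of the 2215 cells with NMB, and the part of cluster mix was not tested.

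Markers of nerve and endocrine cells, which are other known sources of these peptides, were checked in the same classes. Their 8 measured markers summed to 13.4 and 9.54 CPM in epithelial-like cells and to 12.8 CPM in stromal-like cells of library 1, where 4 of the 8 were at 0. In stromal-like cells of library 2 they summed to 130.9 CPM, of which SNAP25 made 115.8 CPM. In muscle-like cells they summed to 64.9 and 39.6 CPM, of which STMN2 made 62.9 and 29.9 CPM. The 4 Schwann cell markers summed to 53.5 and 81.4 CPM in muscle-like and to 14.6 and 34.5 CPM in stromal-like cells, nearly all of it NCAM1. The part of such cells in the PENK levels was not tested. No cluster was named as nerve, Schwann or endocrine cells.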

How the data were processed

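Endometrium digested with enzymes gave 2 droplet libraries of transcript 3' ends, per the labels' protocols. The deposited values are raw UMI counts for every gene and barcode. Cell Ranger 6.1.0 produced them per the file headers, but version 2.1.1 stands in the submitters' processing notes. The sources used here do not give the genome build, the aligner or the use of intron reads. Near-identical genes could share reads. The gene identifiers matched no entry of the reference tables at hand, so no coordinates or sequences are printed.

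Kept barcodes had 500 or more UMIs and 200 or more genes, and Scrublet (scanpy 1.11.5) removed 1110 and 2419 doublets. Values were scaled to 10000 UMIs per cell, log transformed and clustered on 2000 variable genes (30 principal components, 15 neighbours, Leiden resolution 1.0, no batch integration). PENK, NMB and NMU were kept out of the clustering genes, a choice made after seeing the data. A cluster took the name of the marker list with the highest mean log2 fold, if 3 markers were detected, the mean reached 0.5 and the next list was 0.25 lower. Dividing clusters and low-UMI clusters without own leading markers stayed unnamed (1.70% and 10.6% of cells).

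UMIs were summed by class and library, with exact Poisson, Clopper-Pearson and conditional binomial intervals. Ratios used a floor of 3 UMIs and needed 10 UMIs over both libraries and 100 cells per class in each library (6 classes). Where a count is 0, the ratio is given with it set to 3 UMIs, and its interval is open-ended. No test was possible with 1 library per group. The members and gene lists were chosen with earlier results of these data known. Named by rule were the members, their receptors, list genes with at least 50 CPM in a class, the 5 genes of most similar class pattern and the 5 highest in cells with a member UMI. SST, POMC, DPP3, GRP, PCSK2, genes that lead clusters and the genes beside the UPTI split were named after their values were seen. In simulated counts with Poisson noise only, 95.4% of stromal (8777 genes) and 96.0% of epithelial (8725 genes) intervals held the true ratio. Exact intervals cover such counts by construction, so the simulation checks the calculation only, and not the spread over cells or animals. Alternatives were a stricter cell filter, doublets kept, separate clustering, resolutions 0.5 and 2.0, TMM scaling (edgeR 4.0.16), equal weights for cells, thinning to 1000 UMIs, another floor, other list and pattern settings, and 4 added after seeing the data.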

Additional observations from a re-analysis of the deposited data

How the results depend on the processing

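The stromal PENK log2 ratio kept its sign under 10 alternatives and the epithelial NMB log2 ratio under 13. The PENK ratio of -4.23 was -4.76 with called doublets kept and -5.09 with thinned cells. The NMB ratio of 0.88 was 1.08 with called doublets kept, 0.71 with libraries clustered separately, 0.75 at resolution 2.0, 1.21 with TMM scaling, 0.81 with cells weighted equally and 0.69 with thinned cells. Among alternatives chosen after seeing the data it was 0.77 with the members left in the clustering genes and 0.81 with the unnamed low-UMI cluster counted as epithelial, and 3.60 without cells of at least 5 UPTI UMIs in both libraries. The NMU ratio of 3.79 was 1.20 with thinned cells, where library 1 had no UMI left, and 0.35 without cells of at least 5 UPTI UMIs, where library 1 again had none. It was -0.41 without the UPTI-led cluster, also an added alternative, which by construction takes NMU-rich cells from library 2 alone and is no reversal of a like comparison.

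Counts of list genes moved mainly with the UMI minimum, which changes how many genes are counted. From 50 UMIs, 5 epithelial and 5 stromal genes were at least 2-fold lower, as were 2 in blood endothelial, 0 in T or NK and 1 in macrophage-like cells. At that minimum 4 in muscle, 4 in blood endothelial, 5 in T or NK and 3 in macrophage-like cells were at least 2-fold higher. From 1 UMI, 31 epithelial, 17 T or NK and 24 macrophage-like genes were at least 2-fold lower, many of them at the floor. With called doublets kept, 9 blood endothelial and 6 T or NK genes were lower, and the cause was not tested. Under the other alternatives, 56 values of these main results and 154 secondary values stayed within their counting interval or within 1.5 times, and 39 secondary values moved further with none reversed.

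No paired analysis was possible because each group holds 1 library. Depth limits NMU in library 1 (8 UMIs) and all receptors, and 1 animal per library limits every comparison.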
